A study of Mus musculus with 6 samples.

Results

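The genes described here are 43 genes of the integrated stress response and the unfolded protein response, out of 39017 genes in the count table. They were chosen by name, with earlier results of these data known. Of them, 27 belong to the branch that runs through the transcription factor ATF4, and 16 to the branch of ATF6 and XBP1 in the endoplasmic reticulum (ER). All 43 had enough counts to enter the test. RNA was sequenced from adherent cells grown out of the crushed long bones of wild-type BALB/c mice and labelled as F4/80+ CD169+ bone marrow macrophages, with 3 libraries from young animals (3 weeks old) and 3 from old animals (more than 78 weeks old). Each library came from 10000 cells, the adherent cells had been expanded in alpha-MEM with serum, and the labels do not say whether the libraries of an age came from separate animals. The p-values therefore measure the spread between these libraries, which may be technical.

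Cells slow their protein synthesis when a kinase phosphorylates the initiation factor eIF2alpha, and the Atf4 messenger is then translated better. ATF4 protein switches on genes for amino acid synthesis, amino acid import, tRNA charging and, in prolonged stress, cell death. The kinase PERK, which senses misfolded protein in the ER, feeds this branch, while the sensors IRE1 and ATF6 raise chaperones and degradation factors through XBP1 and ATF6 itself. Cells that secrete much protein, such as plasma cells and osteoblasts, depend on that second branch. Counts per gene do not show translation of Atf4 or splicing of Xbp1, so the values below are messenger levels.

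The promoters of some members carry letters of the regulators' known elements, and a few are shown. RefSeq (GRCm38.p6) entries matched 36 of the 43 members, and the 250 bases before each start site were searched on both strands. The C/EBP-ATF element TGATGNAA was present for 6 of 23 members of the ATF4 branch (26.1%) and 1 of 13 of the ATF6/XBP1 branch (7.69%). Of 27025 gene symbols with an entry, 3.91% carried it. The 6 included Asns, Chac1, Gars, Nupr1 and Vldlr. The ER stress response element is CCAAT and CCACG with 9 bases of any kind between them. It was present for 5 of 13 members of the ATF6/XBP1 branch (38.5%) and 0 of the 23 of the ATF4 branch, against 0.13% of all symbols. In the stretches below, capitals mark the matches. They lie at chr2:119351027-119351071 (Chac1), chr19:27216809-27216838 (Vldlr) and chr6:7693214-7693243 on the minus strand (Asns). TTGCATCA is the element read on the opposite strand.
Chac1: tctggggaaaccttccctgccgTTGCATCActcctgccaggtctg
Vldlr: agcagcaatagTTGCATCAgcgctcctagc
Asns: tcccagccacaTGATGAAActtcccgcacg
The ER element stood in Hspa5, Hsp90b1, Dnajc3, Pdia6 and Creld2, and Hsp90b1 held it on each strand. The stretches shown lie at chr2:34772019-34772048 (Hspa5), chr10:86705524-86705664 on the minus strand (Hsp90b1), chr14:118937812-118937857 (Dnajc3) and chr12:17266477-17266521 (Pdia6).
Hspa5: acttcaCCAATCGGAGGCCTCCACGacggg
Hsp90b1: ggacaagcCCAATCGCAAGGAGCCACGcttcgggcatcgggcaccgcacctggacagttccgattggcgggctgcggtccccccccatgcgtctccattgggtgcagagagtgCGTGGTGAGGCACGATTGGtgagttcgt
Dnajc3: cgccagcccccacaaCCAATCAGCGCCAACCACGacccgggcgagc
Pdia6: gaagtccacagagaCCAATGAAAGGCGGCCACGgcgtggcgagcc
Herpud1 (chr8:94386304-94386396) was the member with both kinds: the C/EBP-ATF element and ER stress response element II, ATTGG and CCACG with 1 base between them, which 0.037% of symbols carried.
Herpud1: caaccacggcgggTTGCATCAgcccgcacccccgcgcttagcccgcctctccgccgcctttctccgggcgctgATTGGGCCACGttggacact
The XBP1-type core TGACGTGG was found for 0 of 36 members and 0.603% of symbols. A match is a description of letters and not of binding. For Vldlr, Nupr1, Aars, Asns and Hspa5 the match lies inside the GENCODE span of the gene, because the RefSeq start used is internal to that span.

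Within the ATF4 branch, the gene of the factor itself and 4 genes grouped here as feedback, death or growth brakes were higher in old libraries. Vldlr was lower. Of these 6 calls, only that of Vldlr held without each single library. Of the 27 members, 5 rose in the old libraries (Atf4, Ddit4, Chac1, Trib3 and Ppp1r15a), 1 fell (Vldlr) and 21 did not pass an adjusted p of 0.05 (edgeR quasi-likelihood test, Benjamini-Hochberg over 15567 genes). Over all genes tested, 10.5% passed, 5.84% as higher and 4.7% as lower, and of the 43 members 13.95% did. Of the 16 members of the ATF6/XBP1 branch, 0 rose and 0 fell. Neither DESeq2 nor limma-voom called any of the 16 (0 by each), and edgeR's unadjusted p was under 0.05 for 1, against 12 of the 27 and 23.8% of all genes tested. The median log2 fold change, old minus young, was 0.06 in the ATF4 branch and -0.03 in the ATF6/XBP1 branch, beside -0.01 over all genes tested. The medians of the branches were therefore close. The ATF4 branch differed by members that moved in either direction, with log2 fold changes spread from -1.66 to 1.10 against -0.26 to 0.14 in the other. The ranges of the ages, in CPM (a gene's counts scaled to a common library size), did not overlap for 11 members with the old libraries above and 6 with the old libraries below. The ATF4 branch held 10 of the 11 and 4 of the 6, and the ATF6/XBP1 branch 1 and 2. Over all genes tested, 30.2% had ranges that did not overlap, 15.9% with the old libraries above and 14.3% below.

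**Figure D1:**
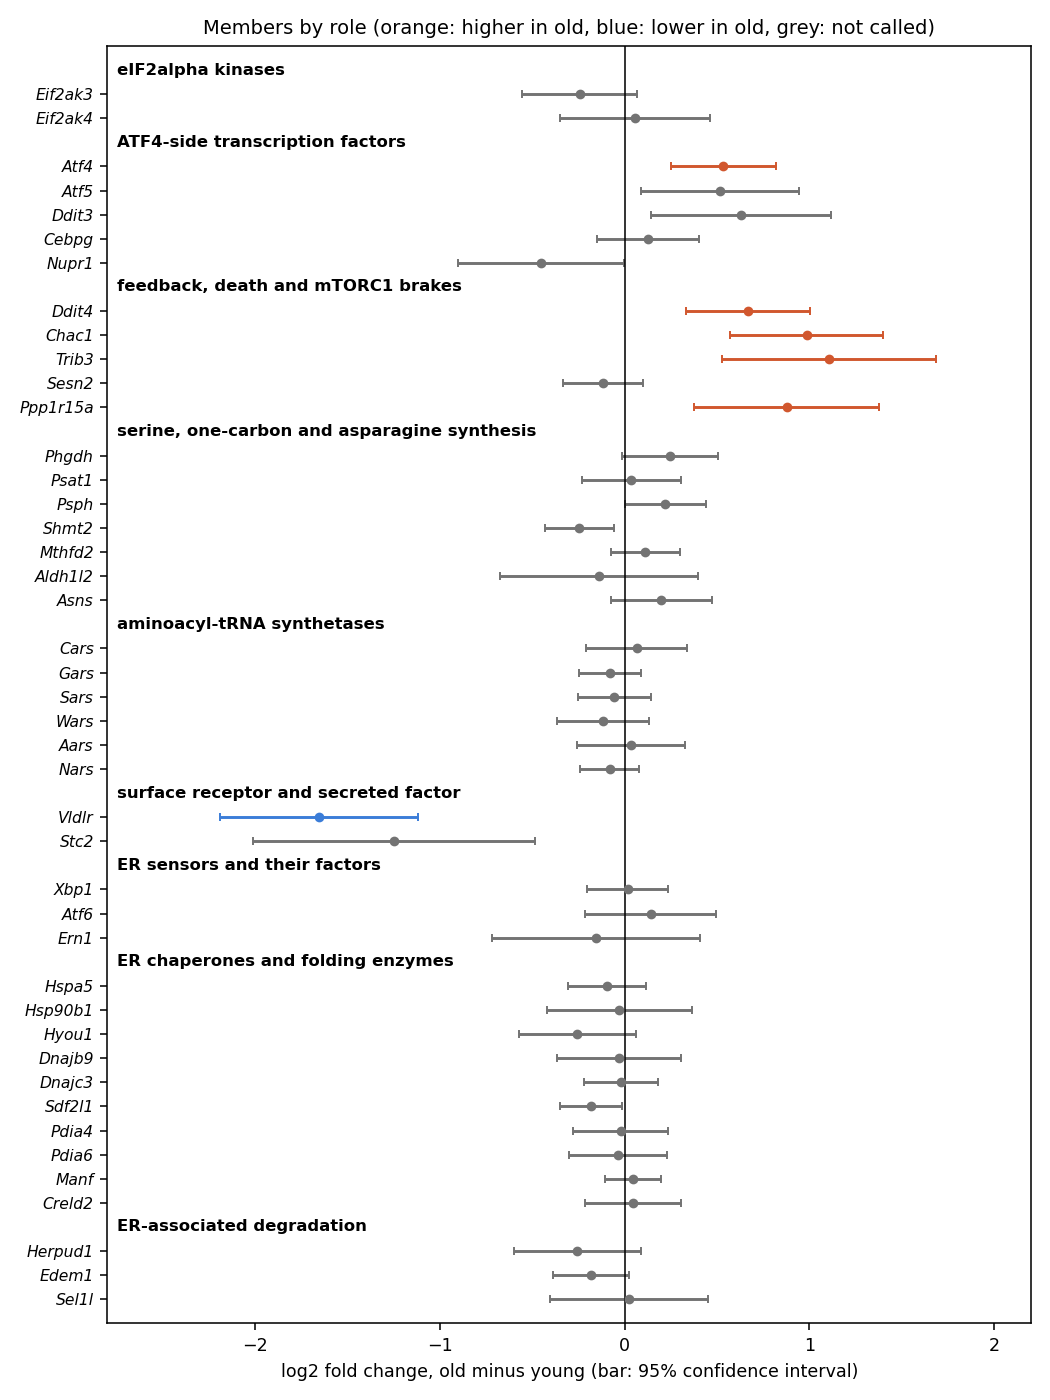
Log2 fold change (old minus young, x axis) of each of the 43 members, grouped by role, with the 95% confidence interval from edgeR as a bar. The 5 orange members rose, the blue one fell, and the 16 members of the ER groups lie between -0.26 and 0.14.

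Libraries held 34391206 to 43367734 counts. The first principal component (53.0% of variance) separated the ages, and the second (16.1%) set young replicate 3 apart. In young replicate 3, 18 of the 27 ATF4-branch members had their highest young value, and in old replicate 2, 16 had their highest old value. The ATF6/XBP1 branch leaned to the same libraries, with 9 and 7 of its 16 members. With young replicate 3 left out, 6 ATF4-branch members rose beside 1459 genes in all, where the full set gave 5 and 909. These counts were 2 and 539 on dropping young replicate 1, and 0 and 621 on dropping young replicate 2. Dropping any one old library gave 1 member, beside 418 to 492 genes. Both counts exceeded those of the full set only when young replicate 3 was dropped, and both were lower without any other library. They did not move in proportion, as the 0 beside 621 without young replicate 2 shows. Whether the calls of the ATF4 branch were less stable than those of other genes was not tested.

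Markers of several cell types moved between the same libraries. In bulk samples, fewer cells of a type and less RNA per cell cannot be told apart. Of 12 macrophage markers, 11 fell, and their summed level went from between 3241 and 3619 CPM in young to between 1830 and 2111 CPM in old libraries. Adgre1, which encodes F4/80, had 530, 504 and 385 CPM in young and 245, 236 and 197.5 CPM in old libraries, and Siglec1, the CD169 gene, fell from 131 ± 6.61 CPM (SD, n = 3) to 43.3 ± 5.28 CPM. The markers of the labelled cell type were thus present in every library. Of 8 pan-leukocyte markers 2 fell, but 0 without old replicate 1 or 2, 1 without old replicate 3, 3 without young replicate 1 and 5 without young replicate 3. Ptprc, the gene for CD45, had 107 ± 14.6 and 83.3 ± 2.19 CPM (edgeR adjusted p = 0.0837). Of 8 stromal markers, 1 rose and 1 fell (0 fell without old replicate 1, young replicate 1 or young replicate 2, and 2 rose without young replicate 3), and their summed level lay between 30152 and 67787 CPM in young and between 21969 and 28018 CPM in old libraries. Col1a1, type I collagen, was abundant throughout, at 19086, 16937 and 36658 CPM in young and 10920, 11565 and 13803 CPM in old libraries. Of 8 osteoblast markers, 4 fell, and their sum went from between 1587 and 3386 to between 715 and 944 CPM, with Ibsp, bone sialoprotein, at 1318, 657 and 1636 CPM in young and 49.1, 38.3 and 77.0 CPM in old libraries.

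Of 9 tested plasma cell markers, 7 rose, and the list's sum went from between 335 and 354 to between 1054 and 1502 CPM, while Ighg1 had no count in any young library. Jchain, the joining chain of secreted IgM and IgA, went from 6.89 ± 4.83 to 80.2 ± 30.4 CPM (edgeR adjusted p = 0.0179, up to 0.0578 on leaving out young replicate 1, young replicate 2, old replicate 1 or old replicate 3). Of 7 tested B cell markers, 6 rose, among them Cd79a, from 0.708 ± 0.252 to 5.17 ± 1.77 CPM. The count was 2 without old replicate 1 or 2 and 3 without old replicate 3, and from 4 to 5 without a young one. Of 6 megakaryocyte and 6 mast cell or basophil markers, 3 and 4 rose, with sums from between 4.20 and 19.0 to between 46.5 and 133.5 CPM and from between 21.1 and 26.3 to between 59.5 and 99.6 CPM. Leaving out 1 library gave 0 (without young replicate 3) to 5 (without young replicate 2) megakaryocyte markers, with 1 without young replicate 1 or old replicate 1 or old replicate 2. It gave 2 mast cell or basophil markers without old replicate 2, old replicate 3 or young replicate 2, and 3 or 4 without the others. Of 5 tested osteoclast markers 1 rose, and of 6 neutrophil and 6 endothelial markers 0 passed in each by edgeR (3 and 2 at an unadjusted p under 0.05). The part of these shifts in the values of Atf4, Chac1, Trib3, Ddit4, Ppp1r15a, Vldlr and the ER branch was not tested.

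Of the 5 transcription factors of the ATF4 branch, 1 rose. Atf4, which encodes the factor itself, lies on chromosome 15 (80255184 to 80257541, mm10). It had 53.5, 50.8 and 67.4 CPM in young replicates 1, 2 and 3 and 84.5, 85.2 and 78.9 CPM in old ones. Every old library lay above every young one. The log2 fold change was 0.53 with SE 0.12 (edgeR adjusted p = 0.0340). The call held without young replicate 3 (adjusted p = 0.00223) and was lost without any other single library (adjusted p from 0.0851 to 0.126).

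Ddit3, which encodes the death-promoting factor CHOP, had 4.48, 6.62 and 7.55 CPM in young and 10.15, 8.85 and 9.83 CPM in old libraries. These groups did not overlap either, but the difference did not pass (log2 fold change 0.63, SE 0.21, edgeR adjusted p = 0.1105). It passed with DESeq2 (adjusted p = 0.0492) and without young replicate 3 (adjusted p = 0.0415), and 10.9% of its exon length is shared with another model of the same name. Atf5, a related factor that is also translated under stress, went from 4.75 ± 0.869 to 6.79 ± 0.497 CPM (SD, n = 3, edgeR adjusted p = 0.137), again with the old libraries above. Cebpg, a dimer partner of ATF4, had a log2 fold change of 0.13 (95% interval -0.15 to 0.40). Nupr1, a small stress-induced chromatin protein, had 41.5, 32.7 and 55.5 CPM in young and 30.1, 29.7 and 35.0 CPM in old libraries, which overlapped (log2 fold change -0.45, edgeR adjusted p = 0.206).

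The kinases upstream did not pass the test. Eif2ak3, which encodes PERK, went from 38.7 ± 6.23 to 32.7 ± 1.55 CPM and Eif2ak4, which encodes the amino acid sensor GCN2, from 19.9 ± 4.62 to 20.7 ± 1.37 CPM. Their log2 fold changes of -0.24 and 0.06 had 95% intervals of -0.55 to 0.07 and -0.35 to 0.46.

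The genes that brake growth, feed back on the response or promote death gave 4 of the 5 increases, a count that held without young replicate 3, was 0 without young replicate 2 and 2 without young replicate 1, and was 1 without each old library. Chac1, an enzyme that degrades glutathione and marks strong ATF4 activity, lies on chromosome 2 (119351229 to 119354381). It had 9.48, 8.04 and 9.42 CPM in young and 15.4, 22.1 and 15.8 CPM in old libraries. The young values were tight and the old ones all higher, with old replicate 2 the highest. The log2 fold change was 0.99 with SE 0.18 (edgeR adjusted p = 0.0145), and the call was lost without young replicate 2 alone (adjusted p = 0.0512). Chac1 is also the one member that rose whose promoter window holds the C/EBP-ATF element shown above.

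Trib3, a pseudokinase that restrains ATF4 and AKT, also lies on chromosome 2 (152337422 to 152344032). It had 5.48, 7.07 and 9.09 CPM in young and 13.7, 20.1 and 12.8 CPM in old libraries. Here too old replicate 2 was highest and the ages did not overlap. Its log2 fold change of 1.10 (SE 0.25, edgeR adjusted p = 0.0324) was the largest increase among the members. The Trib3 call held without young replicate 3 (adjusted p = 0.0142) and was lost without any other single library (adjusted p from 0.0570 to 0.106).

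Ppp1r15a on chromosome 7 (45522916 to 45526268) encodes GADD34, the phosphatase subunit that reverses eIF2alpha phosphorylation. It had 12.2, 11.1 and 19.3 CPM in young and 27.9, 25.5 and 24.7 CPM in old libraries. Young replicate 3 was the highest of its age and still below the old libraries. The log2 fold change was 0.88 with SE 0.21 (edgeR adjusted p = 0.0435). This call held without young replicate 3 (adjusted p = 0.00135) and was lost without each of the other libraries (adjusted p from 0.105 to 0.150).

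Ddit4 on chromosome 10 (59949669 to 59951834) encodes REDD1, an inhibitor of the growth kinase mTORC1 that hypoxia and glucocorticoids also induce. It had 22.3, 17.3 and 17.8 CPM in young and 30.8, 26.7 and 33.7 CPM in old libraries. The groups did not overlap (log2 fold change 0.67, SE 0.14, edgeR adjusted p = 0.0281). The Ddit4 call held without young replicate 1 or 3 (adjusted p of 0.0278 and 0.0369) and was lost without young replicate 2 or any old replicate (adjusted p from 0.0524 to 0.105). Sesn2, another inhibitor of mTORC1, was the fifth gene of the group and did not pass, with 102 ± 6.66 CPM at the young age and 94.0 ± 7.60 CPM at the old age (log2 fold change -0.12, 95% interval -0.33 to 0.10).

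**Figure D2:**
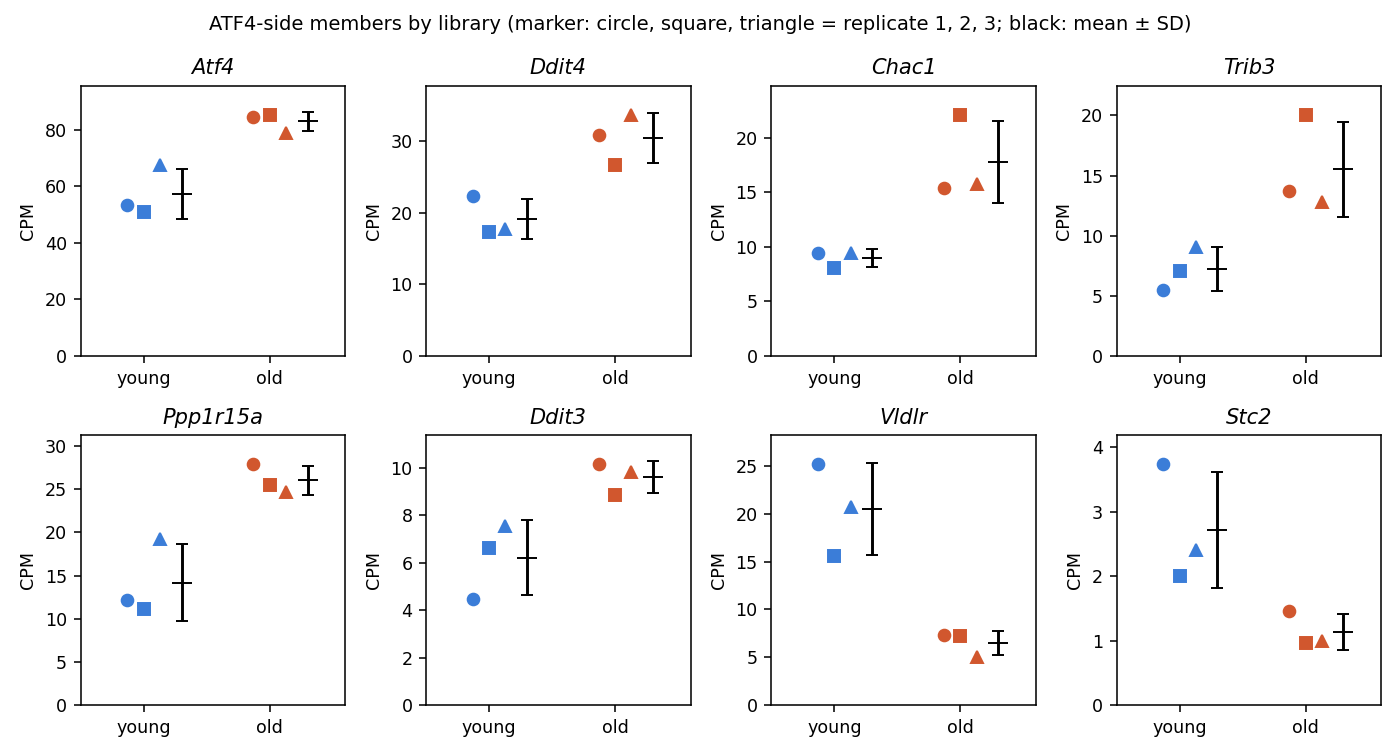
CPM (y axis, from 0) of 8 ATF4-branch members in each young and old library, with the mean ± SD in black. Atf4, Ddit4, Chac1, Trib3 and Ppp1r15a rose, Vldlr fell, and Ddit3 and Stc2 did not pass although their ages do not overlap.

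Of the enzymes that make serine, glycine and asparagine, 0 of 7 passed in edgeR, in DESeq2 and in limma-voom. The unadjusted p of edgeR was under 0.05 for 2, where 23.8% of all genes tested reached it. Of the 7, 5 had a positive log2 fold change, and 3 had every old library above every young one. Over all genes tested, 7554 of 15567 had a positive log2 fold change and 15.9% had every old library above. Phgdh, Psat1 and Psph are the enzymes of serine synthesis. Phgdh went from 74.1 ± 4.96 to 87.8 ± 10.9 CPM and Psph from 37.1 ± 1.97 to 43.3 ± 3.00 CPM, each with the old libraries above the young ones (log2 fold changes 0.25 and 0.22, edgeR adjusted p of 0.2325 and 0.2045). Psat1, at 109 ± 14.8 and 112 ± 7.78 CPM, had a log2 fold change of 0.04 (95% interval -0.23 to 0.30).

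Shmt2, the mitochondrial enzyme that splits serine into glycine and a one-carbon unit, had 157, 144 and 156 CPM in young and 123, 137 and 126 CPM in old libraries. Its direction was opposite, with each old library below each young one (log2 fold change -0.24, SE 0.08, edgeR adjusted p = 0.105). Mthfd2 and Aldh1l2, which carry the one-carbon unit onward in mitochondria, had log2 fold changes of 0.11 and -0.14. Mthfd2 had 51.3, 52.5 and 54.7 CPM in young and 56.1, 59.7 and 55.5 CPM in old libraries, without overlap. Asns, which makes asparagine and carries the C/EBP-ATF element shown above, had 125, 135 and 108 CPM in young and 135, 158 and 129 CPM in old libraries. These overlapped (log2 fold change 0.20, 95% interval -0.08 to 0.47). The highest upper bound of a 95% interval among these enzymes was 0.50, for Phgdh. Lower bounds were 0.57 for Chac1 and 0.53 for Trib3. For Ppp1r15a and Ddit4 they were 0.38 and 0.33, within the interval of Asns. Differences between these genes were not tested. Psph and Aldh1l2 share 10.4% and 14.1% of exon length with other genes.

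The 6 aminoacyl-tRNA synthetases, which load amino acids onto tRNA, were abundant, and 0 passed in edgeR, in DESeq2 and in limma-voom, and the unadjusted p of edgeR was under 0.05 for 0 of them. Their log2 fold changes ran from -0.12 for Wars to 0.07 for Cars. Nars, for asparagine, had 319, 324 and 328 CPM in young and 294, 318 and 305 CPM in old libraries, and is the one of the 6 whose ages did not overlap (log2 fold change -0.08, 95% interval -0.24 to 0.08). Gars, for glycine, had 319 ± 13.4 and 302 ± 10.7 CPM and an interval of -0.25 to 0.09. Aars, for alanine, had 317, 311 and 419 CPM in young and 343, 360 and 369 CPM in old libraries, with young replicate 3 highest of all 6, and shares 15.1% of its exon length with Exosc6. Sars, for serine, had a log2 fold change of -0.06.

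**Figure D3:**
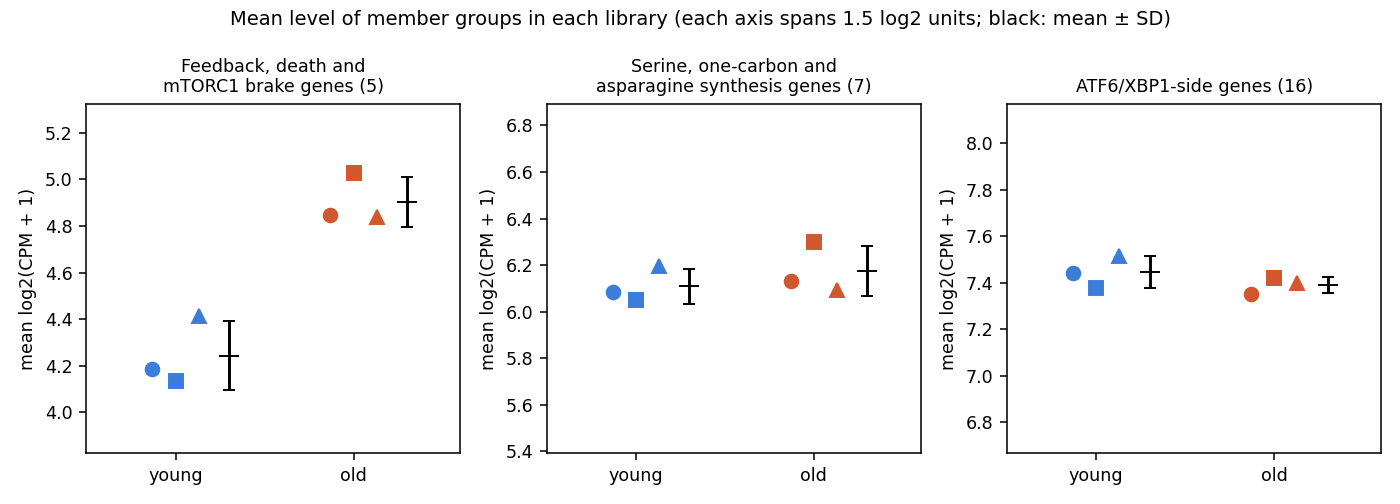
Mean log2(CPM + 1) of 3 groups of members in each library, with the mean ± SD in black and y axes of equal span. The groups were set with earlier results of these data known. The group with Chac1 and Trib3 is higher in every old library (4.84 to 5.03 against 4.13 to 4.41), while the ages overlap for the synthesis enzymes and for the ATF6/XBP1 branch.

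Vldlr and Stc2 went the other way. Vldlr, which encodes the very low density lipoprotein receptor and is induced by ATF4 in other cells, lies on chromosome 19 (27216484 to 27254231). It had 25.2, 15.6 and 20.7 CPM in young and 7.30, 7.19 and 4.998 CPM in old libraries. All old libraries were below all young ones, and the log2 fold change of -1.66 (SE 0.23, edgeR adjusted p = 0.00536) was the largest of any member. The Vldlr call held on leaving out each library in turn (adjusted p at most 0.0271). Its promoter window carries TTGCATCA like that of Chac1, so the 2 called members with this element moved in opposite directions. The Vldlr match lies inside the span given for the gene, whereas that of Chac1 lies before its gene. Stc2, a secreted glycoprotein induced by ER stress, was the scarcest member per length of exon, at 0.525 and 0.220 RPKM (CPM per kilobase of exon). It had 3.74, 2.01 and 2.41 CPM in young and 1.46, 0.961 and 1.00 CPM in old libraries, with no overlap, and just missed the threshold (log2 fold change -1.25, SE 0.32, edgeR adjusted p = 0.0543). It passed with DESeq2 (adjusted p = 0.0124).

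The ER branch was expressed at high levels and was close to level between the ages. Per length of exon, its median member had a level of 48.7 RPKM, against 14.3 RPKM in the ATF4 branch. Hspa5 was the most abundant member, at 309.4 and 289.5 RPKM in young and old, and Ern1 the least in this branch, at 1.10 and 0.989 RPKM. The sensors came first. Xbp1, whose messenger IRE1 splices, had 476, 467.5 and 396 CPM in young and 470, 455 and 430 CPM in old libraries, so the ages overlapped. Its log2 fold change of 0.02 had a 95% interval of -0.20 to 0.24. Atf6 (log2 fold change 0.14) and Ern1, which encodes IRE1 (log2 fold change -0.16), were less precise, with intervals of -0.21 to 0.50 and -0.72 to 0.41.

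Of the 10 chaperones and folding enzymes, 0 passed. Hspa5, which encodes BiP, the main ER chaperone and the gauge most used for ER stress, had 1328, 1198 and 1400 CPM in young and 1183, 1281 and 1209 CPM in old libraries. These overlapped, with a log2 fold change of -0.10 and a 95% interval of -0.30 to 0.11. Hsp90b1, which encodes GRP94, had 685, 655 and 960 CPM in young and 695, 695 and 864 CPM in old libraries, where replicate 3 of each age was high (log2 fold change -0.03, interval -0.42 to 0.36, 15.7% of exon length shared with another gene). The disulfide isomerases Pdia4 and Pdia6 had log2 fold changes of -0.02 and -0.04. Manf, a secreted protein that ER stress induces, had 168, 170 and 168 CPM in young and 171, 177 and 174 CPM in old libraries. Its values did not overlap, yet the difference was small (log2 fold change 0.04, interval -0.11 to 0.20, edgeR adjusted p = 0.749).

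Sdf2l1, part of a chaperone complex with BiP, was the one ER-branch member with an unadjusted p under 0.05. It had 148, 143 and 134 CPM in young and 128, 123 and 123 CPM in old libraries, all lower (log2 fold change -0.18, SE 0.07, edgeR adjusted p = 0.177). It passed only without young replicate 3 (adjusted p = 0.0484), at about the same size. Hyou1, a nucleotide exchange factor of BiP, had a log2 fold change of -0.26 (interval -0.57 to 0.06). Dnajc3 and Dnajb9, co-chaperones of BiP, had -0.02 and -0.03, and Creld2 had 0.04. The 5 members with the ER stress response element shown above were all uncalled, with log2 fold changes from -0.10 for Hspa5 to 0.04 for Creld2.

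The 3 genes of ER-associated degradation, which returns misfolded proteins to the cytosol, did not pass. Edem1, which recognises trimmed glycans, had 362, 336 and 307 CPM in young and 302, 304 and 277 CPM in old libraries, just clear of overlap (log2 fold change -0.18, interval -0.39 to 0.02). Herpud1, whose window holds both elements, had 123, 98.5 and 131.5 CPM in young and 84.7, 114 and 97.3 CPM in old libraries (log2 fold change -0.26, edgeR adjusted p = 0.355). Sel1l, the scaffold of the ligase complex, varied more within an age than between them, from 139 to 206.5 CPM in young and 154 to 215 CPM in old libraries.

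Set side by side within each library, the mean log2(CPM + 1) of the ATF4 branch less that of the ATF6/XBP1 branch was -2.01, -2.02 and -1.92 in young and -1.82, -1.80 and -1.90 in old replicates 1, 2 and 3. The old values were all higher, narrowly so between young replicate 3 and old replicate 3. Neither branch mean separated the ages by itself. The ATF4 branch had 5.43, 5.36 and 5.59 in young and 5.53, 5.62 and 5.50 in old libraries, with young replicate 3 above old replicates 1 and 3. The ATF6/XBP1 branch had 7.44, 7.38 and 7.52 in young and 7.35, 7.42 and 7.40 in old ones, so the ages overlapped.

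Other genes tied to these branches were read from lists outside the members. These lists were chosen with earlier results of these data known, so they are no independent support. Of 10 tested genes linked to ATF4, 5 rose and 0 fell (median log2 fold change 0.63), where 5.84% of all genes tested rose. The count was 1 without old replicate 1 or 2, 2 without old replicate 3 or young replicate 1, and 3 without young replicate 2. Atf3, a stress-induced repressor, had 33.5, 34.3 and 37.4 CPM in young and 59.0, 54.6 and 57.3 CPM in old libraries, with a wide gap between the ages (log2 fold change 0.70, SE 0.09, edgeR adjusted p = 0.00342). Its call held without each single library (adjusted p at most 0.0253). Cth, which makes cysteine from cystathionine, rose by a log2 fold change of 1.05 (edgeR adjusted p = 0.0112), a call lost without old replicate 1 or 2 (adjusted p of 0.0554 and 0.0549). Pck2, a mitochondrial enzyme of glucose synthesis, rose by 0.64 on the log2 scale (edgeR adjusted p = 0.0192), lost without any single library but young replicate 3 (adjusted p up to 0.0849). The other 2 that rose were Gdf15, a secreted stress cytokine, and Cebpb, with adjusted p of 0.0392 and 0.0449. The Gdf15 call held only without young replicate 3 (otherwise adjusted p up to 0.148) and the Cebpb call only without young replicate 2 (otherwise up to 0.158), and Cebpb shares 20.7% of its exon length with Tmem189.

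Of 9 amino acid transporters linked to ATF4, 2 rose and 0 fell, with 3 and 1 without young replicate 3 and 1 and 0 without any other library. Slc7a11, the cystine importer that NRF2 also controls, had 3.28, 3.08 and 2.11 CPM in young and 9.52, 7.56 and 8.08 CPM in old libraries. This separation held without each library (log2 fold change 1.57, SE 0.21, edgeR adjusted p = 0.00514, at most 0.0297 without 1 library). Slc6a9, a glycine transporter, rose by 0.88 on the log2 scale (edgeR adjusted p = 0.0284), a call lost without any single library but young replicate 3 (adjusted p up to 0.0889), and it shares 30.3% of its exon length with Ccdc24.

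The remaining lists held few or no calls, as the members of the ER branch did. By edgeR, 0 of 14 genes of the eIF2 and eIF2B complexes and eIF2alpha control passed (2 at an unadjusted p under 0.05), 0 of 14 other aminoacyl-tRNA synthetases (0), 0 of 8 mitochondrial chaperones and proteases (1) and 0 of 10 cytosolic heat shock genes (3), where 23.8% of all genes tested had such a p. Without young replicate 3, 4 heat shock genes were higher and 1 lower. Ppp1ca, a catalytic subunit that GADD34 guides, Vars, the valine synthetase, Hspa9, the mitochondrial HSP70, and Hspa8, the constitutive cytosolic HSP70, had log2 fold changes of 0.08, -0.0029, 0.06 and -0.0016. Ppp1cb, Eprs, Hspd1 and Hsp90ab1, the next most abundant of each list, had 0.13, -0.14, -0.14 and -0.21. Ppp1ca and Ppp1cb share 16.5% and 17.5% of exon length with other genes. Of 22 further ER folding and translocation genes, 1 fell: Ssr2, of the translocon complex (log2 fold change -0.32, 12.8% of exon length shared with Gm10704, edgeR adjusted p = 0.0465, lost without any library but young replicate 3, up to 0.171). In that list 19 of the 22 had a negative log2 fold change (median -0.13), and 5 had every old library below every young one. Over all genes tested, 4.7% fell, 8013 of 15567 had a negative log2 fold change, and 14.3% had every old library below. The mean log2(CPM + 1) of the list of 22 was 8.04, 7.97 and 7.99 in young and 7.90, 7.85 and 7.89 in old libraries, all lower. Without young replicate 3, 4 of these genes were lower and 1 higher. Of 13 further degradation genes, 1 rose: Derl3, which plasma cells express, from 0.494 ± 0.302 to 2.04 ± 0.288 CPM (edgeR adjusted p = 0.0366, lost without any library but young replicate 3, up to 0.130).

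Of 9 genes of ER sensor activation, 1 fell. Creb3l1, a membrane-bound factor of the ATF6 kind that bone-forming cells use for collagen secretion, had 333, 254 and 345 CPM in young and 148, 156 and 150 CPM in old libraries. The old values were about level with each other and far below the young ones (log2 fold change -1.04, SE 0.12, edgeR adjusted p = 0.00304, at most 0.0235 without 1 library). Of 12 genes that process collagen in the ER, 1 fell, P4ha1, a subunit of prolyl hydroxylase (log2 fold change -0.79, edgeR adjusted p = 0.00596, at most 0.0403 without 1 library). Of the 12, 11 had a negative log2 fold change, as had 8013 of the 15567 genes tested. Every call compares the same old and young libraries, so which genes fell or rose together is fixed by the design. Creb3l1 and P4ha1 thus fell in the same libraries as Ibsp and 11 of 12 macrophage markers, and Derl3 rose with Jchain. The part of any cell type in these values was not tested.

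**Figure D4:**
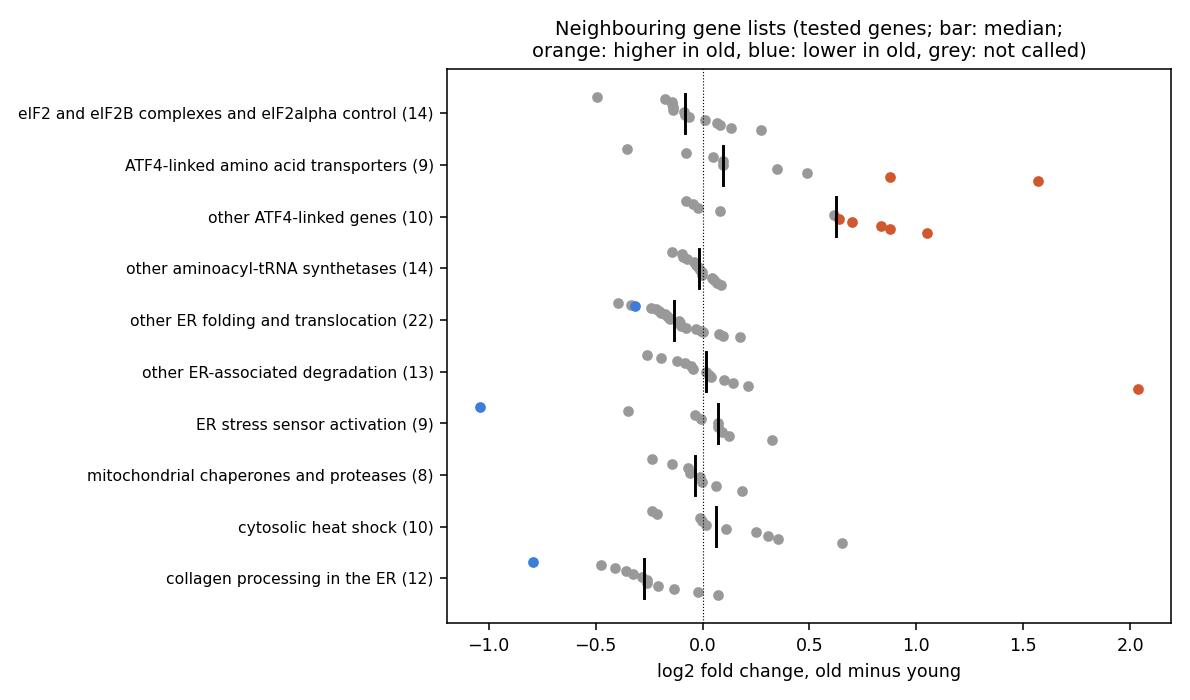
Log2 fold change (old minus young, x axis) of each tested gene in 10 neighbouring lists, with the list median as a black bar and calls in colour. The ATF4-linked genes have the highest median, 0.63, and the collagen-processing genes the lowest, -0.27. The lists were chosen with earlier results of these data known.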

How the data were processed

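Per the labels' protocols, cDNA was made with SMART-Seq v4, which keeps no strand, and sequenced as 100 bp read pairs. The deposited values are raw counts per Ensembl gene. Per the submitters' processing notes, tools included STAR 2.6.1a, HISAT2 2.1.0 and StringTie 1.3.4d with mm10. Not given in the sources used here are the counting tool, its annotation and its treatment of multi-mapping reads. Symbols (37607 genes), positions and exon overlaps came from GENCODE M21, and exon overlap is given above 10%.

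The test was edgeR 4.0.16 under R 4.3.3 (filterByExpr, TMM, robust quasi-likelihood test of age). CPM uses TMM-scaled library sizes. SE is the log2 fold change over the root of F. RPKM divides CPM by exon length. Alternatives included DESeq2 1.42.0, limma-voom (limma 3.58.1), other scalings and filters, and leaving out each library. The procedure was tested on simulated data. All 43 members were to be described, with up to 3 called genes per direction from each other list (the 2 most abundant where none passed) and fixed composition gauges. Not every gene this rule names is printed. Gdf15 and Cebpb were named after their values were seen. Members and lists were chosen with earlier results of these data known.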

Additional observations from a re-analysis of the deposited data

How the results depend on the processing

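Scaling by DESeq2 size factors, upper-quartile factors or without the 50 most abundant genes, limma-voom, and no low-count filter left all 43 members with the same direction and side of the threshold. With DESeq2 there were 1137 lower genes in all (731 in the main analysis) and 2 lower ATF4-branch members (Vldlr and Stc2), and Ddit3 joined the higher ones. With at least 50 counts in 3 libraries there were also 2 lower ATF4-branch members. The replicate numbers of young and old libraries are not stated to mark a shared source. Deviations of same-numbered libraries correlated at 0.088, 0.034 and 0.090, each library correlating best with its own number, which is a hint from the data only. With a replicate block, 3 ATF4-branch members were higher (Atf4 and Ppp1r15a lost, adjusted p of 0.0633 and 0.0559) and 2 lower.

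Leaving out 1 library gave 418 to 1459 higher and 294 to 1168 lower genes, 0 to 6 higher ATF4-branch members, 0 to 1 lower ATF6/XBP1-branch members, and a difference between branch medians of 0.0492 to 0.162. The cause was not tested beyond the fewer libraries. Of uncalled members, 15 changed sign. Their log2 fold changes ran from -0.0706 to 0.26 for Eif2ak4, -0.0393 to 0.15 for Psat1, -0.30 to 0.15 for Aldh1l2, -0.0002 to 0.19 for Cars, -0.10 to 0.0131 for Sars, -0.0444 to 0.19 for Aars, -0.0627 to 0.06 for Xbp1 and -0.33 to 0.0864 for Ern1. They ran from -0.14 to 0.17 for Hsp90b1, -0.16 to 0.0609 for Dnajb9, -0.0528 to 0.045 for Dnajc3, -0.0828 to 0.09 for Pdia4, -0.11 to 0.09 for Pdia6, -0.0194 to 0.16 for Creld2 and -0.15 to 0.17 for Sel1l.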
